A study of Mus musculus with 32 samples.

Results

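Txnip (thioredoxin-interacting protein) and its relatives Arrdc1, Arrdc2, Arrdc3 and Arrdc4 (arrestin domain-containing genes) were followed in BV-2 mouse microglial cells that carried 1 of 3 microRNA mimics or a scramble mimic, with or without lipopolysaccharide (LPS). They are 5 of the 45706 genes in the deposited count table, taken by gene symbol. Txnip was chosen from measured values of these libraries. The rule does not state which, and it was taken to be chosen by its difference between miR-7a and scramble libraries under LPS and under vehicle and its difference between LPS and vehicle, and the other 4 genes were added by name as its family. For this reason the 5 genes' values in the comparisons of miR-7a with scramble, and of LPS with vehicle in the scramble and miR-7a libraries, are given as a description with no test. The LPS response within the miR-29a and miR-146a libraries, and the comparison of these mimics with each other, used no library of the choice as it was taken to be. The genes were chosen with earlier results of these data known, so it cannot be said that these tests are free of the choice. The tests of miR-29a and miR-146a against scramble, and of the difference of these effects between LPS and vehicle, share the scramble libraries taken to have entered the choice, and are not independent of it. All 5 genes passed the filter on low counts in each comparison.

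Alpha-arrestins are adaptor proteins with an arrestin fold and, in most members, a tail with PY motifs that bind the WW domains of Nedd4-type HECT ubiquitin ligases. Through these ligases they steer membrane proteins into endocytosis. Txnip also binds and inhibits thioredoxin, promotes uptake of the glucose transporters Slc2a1 and Slc2a4 from the cell surface, and is degraded after phosphorylation by AMP-activated kinase. Its transcription is driven by the glucose-sensing factors MondoA (Mlxip) and ChREBP (Mlxipl) with their partner Mlx, which bind carbohydrate response elements, and Arrdc4 is another classical target of MondoA. Arrdc3 is known from the trafficking of beta-adrenergic receptors and integrin beta 4, and Arrdc1 recruits Tsg101 to the plasma membrane to bud small vesicles. Little is established about Arrdc2. In macrophages Txnip has been linked to the Nlrp3 inflammasome.

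RNA sequencing covered 32 libraries in 8 groups of 4, named VEH_scramble, VEH_miR-7a, VEH_miR-29a, VEH_miR-146a, LPS_scramble, LPS_miR-7a, LPS_miR-29a and LPS_miR-146a. All groups were BV-2 cells of WT genotype transfected with a mimic, that is, synthetic duplex RNA that stands in for a mature microRNA (miR-146a-5p, miR-29a-3p, miR-7a-5p) or has a scramble sequence as control, and received vehicle (VEH) or LPS, a bacterial cell wall component, at 10 ng/ml for 24 h. BV-2 is 1 immortalised line, so the libraries of a group do not come from different animals. The study's methods call the 4 replicates independent experiments. The labels place LPS before transfection and the study's methods after it, and the labels name the cell type Glioblastoma and carry a mouse age that cannot apply to a cell line. The mimics were compared to ask which transcripts respond to each microRNA in resting and in LPS-treated cells. Each of the 3 mimics is set against a single set of 4 scramble libraries per condition.

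Levels are given as CPM, the restored estimated counts scaled to a common library size after TMM normalization. They were restored because the deposited values had lost their decimal marks. Library totals ran from 1162730 counts (VEH_miR-7a replicate 4) to 20315285 (LPS_scramble replicate 4). Small structural RNA genes took 4.34% to 40.4% of the counts in VEH_miR-7a and 2.72% to 19.5% in the other groups. The 10 microglia and macrophage markers summed to 1564 to 3449 CPM and were led by Cd68 (552 to 2101 CPM), while Csf1r stayed at 0.339 to 1.24 CPM, Cx3cr1 was at 0 in 5 libraries and Tmem119 at 0 in 2. Summed markers reached at most 0.625 CPM for astrocytes (3 genes), 3.49 for neurons (3 genes), 3.86 for endothelium (2 genes), 0.313 for fibroblasts (2 genes) and 20.7 for oligodendrocytes (3 genes, where Mbp reached 19.3 and Mog 0.352). In bulk libraries, fewer cells of a type and less RNA per cell cannot be told apart.

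The mimics carry 3 different seeds, so a match to one says nothing of the others. The mature sequences are shown with the seed (bases 2 to 8) in capitals, as RefSeq gives them on build GRCm38.p6. Mature miR-7a-5p is encoded by Mir7-2 (chr7:78888295-78888317, plus strand) and Mir7-1 (chr13:58392841-58392863, minus strand), miR-29a-3p by Mir29a (chr6:31062673-31062694, minus strand) and miR-146a-5p by Mir146 (chr11:43374435-43374456, minus strand).
mmu-miR-7a-5p: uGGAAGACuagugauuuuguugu
mmu-miR-29a-3p: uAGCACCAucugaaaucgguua
mmu-miR-146a-5p: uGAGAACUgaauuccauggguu

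The longest annotated 3′ untranslated region (UTR) of each gene was searched for letters that pair with a seed, either the whole of bases 2 to 8 or bases 2 to 7 followed by an A. Txnip (1354 bases of UTR), Arrdc1 (254) and Arrdc2 (812) held 0 such matches for all 3 mimics, and no match to miR-146a was found in any of the 5 genes. Arrdc3 (2616 bases) held 1 match to miR-7a, of the shorter kind, at chr13:80893473-80893479, and 2 matches to miR-29a at chr13:80895191-80895197 and chr13:80895921-80895927. Arrdc4 (2482 bases) held 1 match to miR-29a at chr7:68738096-68738102 on the minus strand. The stretches are shown because they are the only matches found, with the match in capitals and 8 bases on each side.
Arrdc3, miR-7a: actgtatcTCTTCCAgctgagga
Arrdc3, miR-29a, first: cgctggccTGGTGCTtgacctgg
Arrdc3, miR-29a, second: cttttattTGGTGCTgaatatgt
Arrdc4, miR-29a: agaaacccTGGTGCTtcccaggc
Among 20846 genes with an annotated UTR (median length 975 bases), 23.4% held a match to miR-7a, 16.2% to miR-29a and 18.3% to miR-146a, so a match is common and describes only these letters.

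The 250 bases before the annotated start of Txnip and of Arrdc4 are shown because both genes are known glucose-response targets and their levels varied together in these libraries. Capitals mark the letters of the carbohydrate response element (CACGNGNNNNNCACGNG), the E-box (CACGTG) and the CCAAT box (CCAAT, or ATTGG on the other strand). The searches ran on both strands of 300 bases, 250 before to 50 after each start, and no 2 marked stretches overlap. Txnip (chr3:96557707-96557956, plus strand) and Arrdc4 (chr7:68749239-68749488, minus strand) read as follows in RefSeq on GRCm38.p6.
Txnip: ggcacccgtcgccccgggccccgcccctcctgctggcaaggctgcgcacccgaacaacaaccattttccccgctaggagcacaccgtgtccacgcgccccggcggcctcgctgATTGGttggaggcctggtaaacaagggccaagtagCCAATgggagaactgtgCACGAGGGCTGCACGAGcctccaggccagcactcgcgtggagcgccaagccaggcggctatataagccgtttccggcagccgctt
Arrdc4: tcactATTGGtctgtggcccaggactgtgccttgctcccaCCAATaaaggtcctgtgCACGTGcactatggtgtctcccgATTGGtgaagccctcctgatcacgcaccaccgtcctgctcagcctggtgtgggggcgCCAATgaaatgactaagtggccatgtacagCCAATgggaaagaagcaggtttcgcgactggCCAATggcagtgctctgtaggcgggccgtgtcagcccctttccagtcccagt
Txnip held 1 carbohydrate response element that begins 85 bases before the start, and CCAAT boxes at 137 and 102 bases before it. The same element was found in 16 of 32851 promoters (0.0487%), and in this window only Txnip of the 5 genes had it. Arrdc4 held an E-box 193 bases before the start, as did 7.15% of promoters, and 6 CCAAT boxes, of which 37.4% of promoters held at least 1. Arrdc2 held 3 CCAAT boxes, 2 of the 3 annotated promoters of Arrdc3 held 1 each, and Arrdc1 held none of the motifs.

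Txnip (ENSMUSG00000038393, chr3:96557957-96561883, plus strand, GRCm38) was by far the most abundant of the 5 and the one with the widest range, 23.1-fold between the highest and the lowest library. Per kilobase of exon the VEH_scramble means were 347.9 CPM for Txnip, 19.03 for Arrdc1, 10.1 for Arrdc2, 8.37 for Arrdc4 and 1.62 for Arrdc3. Txnip is overlapped on the opposite strand by the antisense gene Gm15441 (ENSMUSG00000074398, chr3:96555765-96566801), and the strand setting of the counting is not given in the sources used here, so reads of the pair cannot be told apart. Gm15441 held 2 to 24 counts in a library, which was 0.156% to 0.406% of the counts of the pair in VEH_scramble, 0.256% to 0.890% in LPS_scramble and 0.168% to 0.349% in LPS_miR-7a.

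Under vehicle, Txnip stood at 1301, 1120, 1132 and 793 CPM in VEH_scramble replicates 1 to 4. In VEH_miR-7a it stood at 929, 994, 985 and 1107 CPM, and in VEH_miR-29a at 1138, 861, 990.4 and 519.5 CPM. In VEH_miR-146a it stood at 1417, 1437, 1290 and 1089 CPM. The ranges of neighbouring groups overlapped, from VEH_miR-146a (1308 ± 160, SD, n = 4) through VEH_scramble (1086 ± 212) and VEH_miR-7a (1004 ± 74.8) to VEH_miR-29a (877 ± 264).

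Under LPS, Txnip stood at 136, 89.9, 114 and 87.2 CPM in LPS_scramble and at 110.5, 116, 226.5 and 124 CPM in LPS_miR-29a. In LPS_miR-146a it stood at 291, 165, 299 and 62.2 CPM. The LPS_miR-7a libraries stood apart from these, at 535, 544.5, 536 and 573 CPM (547 ± 17.55, SD, n = 4), above every other LPS library and within the range of VEH_miR-29a. The means of the other LPS groups were 204 ± 113 in LPS_miR-146a, 144 ± 55.2 in LPS_miR-29a and 107 ± 23.03 in LPS_scramble, and their ranges overlapped.

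**Figure D1:**
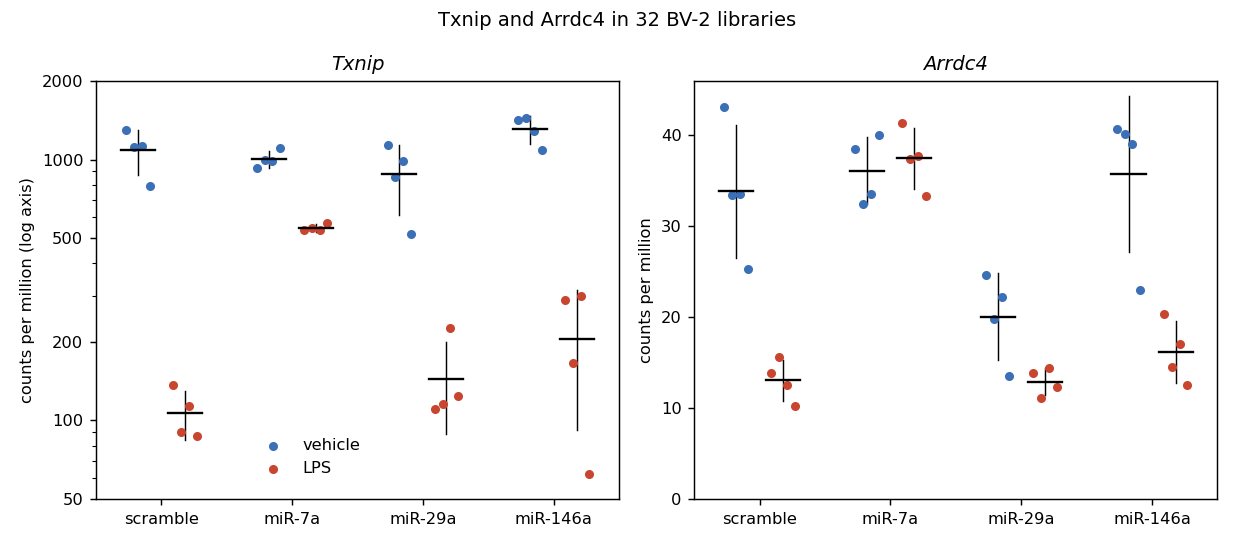
CPM of Txnip (left panel, log axis) and Arrdc4 (right panel) in each of the 8 groups, with a point for each library. A bar marks the group mean and a line 1 SD on either side (n = 4). The 4 LPS_miR-7a libraries lie above the other LPS libraries for both genes, and for Arrdc4 they lie in the range of the vehicle groups.

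LPS lowered Txnip in the cells with either tested mimic. In miR-29a cells Txnip fell by 2.62 on the log2 scale (SE 0.26, 6.16-fold lower, limma adjusted p = 4.22e-05), and the ranges of the LPS and vehicle libraries were apart. In miR-146a cells it fell by 2.85 (SE 0.36, 7.21-fold lower, limma adjusted p = 0.000695), again with the ranges apart. In both cases the LPS library was lower in 4 of 4 same-numbered pairs, and leaving out any 1 library kept the call, with changes of -2.87 to -2.50 for miR-29a and -3.11 to -2.41 for miR-146a. With the decimal marks restored from the level of a gene alone, without the digits, the miR-146a call was lost (-2.99, limma adjusted p = 0.094). Small structural RNA took 4.59% to 19.5% of counts in VEH_miR-29a against 3.02% to 4.84% in LPS_miR-29a, and 3.93% to 7.41% in VEH_miR-146a against 2.72% to 6.03% in LPS_miR-146a, and the part of this share in the result was not tested.

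The scramble and miR-7a libraries, which were taken to have been used in choosing Txnip, gave the following values without a test. Txnip was 10.1-fold lower with LPS in scramble cells (log2 -3.34, SE 0.19) and 1.86-fold lower in miR-7a cells (log2 -0.89, SE 0.12), with ranges apart in both. Small structural RNA took 6.89% to 12.4% of counts in VEH_scramble against 3.01% to 6.09% in LPS_scramble, and 4.34% to 40.4% in VEH_miR-7a against 3.10% to 3.43% in LPS_miR-7a, and its part in these values was not tested. Against scramble, miR-7a libraries were 5.34-fold higher under LPS (log2 2.42, SE 0.15) and differed by -0.07 (SE 0.18) under vehicle. The difference between the last pair of values was 2.502 on the log2 scale (SE 0.22).

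The mimics miR-29a and miR-146a did not move Txnip past the threshold against scramble in either condition. Under LPS the difference was 0.44 for miR-29a (SE 0.23, limma adjusted p = 0.303) and 0.83 for miR-146a (SE 0.39, limma adjusted p = 0.302). The miR-146a value rested on replicate 4, the lowest of the LPS libraries at 62.2 CPM: without LPS_miR-146a replicate 4 the difference was 1.25 with a limma adjusted p of 0.0281, and with the replicate number as a block it was 0.83 with a limma adjusted p of 0.0415. Under vehicle the difference was -0.32 for miR-29a (SE 0.24, limma adjusted p = 0.662) and 0.29 for miR-146a (SE 0.18, limma adjusted p = 0.324). Tested directly, the effect of the mimic did not differ between LPS and vehicle past the threshold for miR-29a (0.73, SE 0.36, limma adjusted p = 0.774) or miR-146a (0.47, SE 0.48, limma adjusted p = 0.719). The miR-29a and miR-146a libraries themselves differed by -0.38 under LPS (SE 0.41, limma adjusted p = 0.594). That value ran from -0.82 to -0.15 when 1 library was left out (limma adjusted p 0.0839 to 0.872). Under vehicle they differed by -0.63 (SE 0.20, limma adjusted p = 0.1), in 4 of 4 same-numbered pairs. The vehicle difference passed with the replicate number as a block (-0.63, limma adjusted p = 0.019) and without the filter (-0.72, limma adjusted p = 0.00732).

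Arrdc4 (ENSMUSG00000042659, chr7:68736995-68749241, minus strand) showed an order of groups in which the LPS_miR-7a libraries came first. It stood at 43.1, 33.4, 33.5 and 25.2 CPM in VEH_scramble, at 38.45, 32.4, 33.5 and 39.97 CPM in VEH_miR-7a and at 40.7, 40.15, 38.95 and 22.9 CPM in VEH_miR-146a. In VEH_miR-29a it stood at 24.6, 19.8, 22.2 and 13.5 CPM, below each VEH_scramble library. Under LPS it stood at 13.9, 15.55, 12.48 and 10.2 CPM in LPS_scramble, at 13.8, 11.1, 14.4 and 12.3 CPM in LPS_miR-29a and at 20.4, 14.5, 17.1 and 12.51 CPM in LPS_miR-146a. LPS_miR-7a stood at 41.3, 37.4, 37.7 and 33.25 CPM, above every other LPS library. The group means fell into a higher block of LPS_miR-7a (37.4 ± 3.30, SD, n = 4), VEH_miR-7a (36.1 ± 3.71), VEH_miR-146a (35.7 ± 8.54) and VEH_scramble (33.8 ± 7.31) and a lower block of VEH_miR-29a (20 ± 4.78), LPS_miR-146a (16.1 ± 3.39), LPS_scramble (13.04 ± 2.25) and LPS_miR-29a (12.9 ± 1.49). Neighbours in the order overlapped within each block, while VEH_scramble and VEH_miR-29a did not overlap (lowest 25.2 against highest 24.6 CPM). The libraries of the blocks were not apart, as VEH_miR-146a replicate 4 (22.9 CPM) lay below VEH_miR-29a replicate 1 (24.6 CPM).

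With LPS, Arrdc4 fell by 1.03 on the log2 scale in miR-146a cells (SE 0.23, 2.04-fold lower, limma adjusted p = 0.0229), with ranges apart and 4 of 4 pairs lower. This call was lost without VEH_miR-146a replicate 1 (adjusted p = 0.05, rounded), 2 (0.0662) or 3 (0.0932) or LPS_miR-146a replicate 2 (0.0744) in limma, and with decimal marks restored from the level alone (0.112). In miR-29a cells the difference of -0.55 (SE 0.22, limma adjusted p = 0.0783) missed the threshold, and passed it in edgeR (-0.62, adjusted p = 0.0469), with the replicate number as a block (-0.59, limma adjusted p = 0.0258) and without VEH_miR-29a replicate 4 (limma adjusted p = 0.0156). The VEH_miR-29a level that this comparison starts from was itself -0.78 against VEH_scramble (SE 0.24, limma adjusted p = 0.295), lower in 4 of 4 pairs, and with the block the value was -0.76 (limma adjusted p = 0.0421). Under LPS, Arrdc4 differed by 0.04 between miR-29a and scramble (SE 0.18, limma adjusted p = 0.923). Arrdc4 held 1 of the printed miR-29a matches, and the part of this match in either value was not tested. The difference between these effects, 0.82 (SE 0.31), had a limma adjusted p of 0.677.

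In the comparisons taken to have chosen Txnip, Arrdc4 was 2.57-fold lower with LPS in scramble cells (log2 -1.36, SE 0.21) and differed by 0.01 (SE 0.17) in miR-7a cells. Against scramble, miR-7a libraries were 2.96-fold higher under LPS (log2 1.57, SE 0.16), with ranges apart, and 0.16 higher on the log2 scale under vehicle (SE 0.22), with overlapping ranges. These values are descriptions, with no test.

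Arrdc3 (ENSMUSG00000074794, chr13:80883384-80896042, plus strand) was the lowest of the 5 per length in VEH_scramble. The gene 1700023H06Rik lies on the other strand at the same place, and its reads likewise cannot be told apart. The mean of Arrdc3 was higher in each LPS group than in the vehicle group of the same mimic. Arrdc3 stood at 22.05, 18.4, 17.01 and 23.7 CPM in LPS_scramble, at 20.4, 15.7, 15.0 and 15.1 CPM in LPS_miR-29a and at 18.85, 19.8, 14.03 and 40.3 CPM in LPS_miR-146a. The last of these, replicate 4, was its highest library and the one with the least Txnip. In LPS_miR-7a it stood at 13.1, 11.3, 8.73 and 13.7 CPM, below each LPS_scramble library. Under vehicle it stood at 5.16, 5.45, 13.5 and 16.45 CPM in VEH_scramble, at 5.46, 10.47, 6.98 and 17.8 CPM in VEH_miR-7a and at 5.85, 8.58, 6.17 and 13.6 CPM in VEH_miR-29a. In VEH_miR-146a it stood at 4.91, 15.1, 14.95 and 13.9 CPM. The vehicle values ran from 4.91 to 17.8 CPM at 7 to 124 counts a library, and all neighbours in the order of group means (8.54 ± 3.57 in VEH_miR-29a to 23.3 ± 11.7 in LPS_miR-146a, SD, n = 4) overlapped.

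LPS raised Arrdc3 in miR-29a cells by 0.89 on the log2 scale (SE 0.26, 1.85-fold, limma adjusted p = 0.0265), higher in 4 of 4 pairs and with ranges apart. The call was lost in limma without VEH_miR-29a replicate 1 (adjusted p = 0.0771), 2 (0.0565) or 3 (0.114), without LPS_miR-29a replicate 1 (0.0633), in a single fit of all 32 libraries (0.055), and with decimal marks restored from the level alone (0.0717). In miR-146a cells the difference was 0.54 (SE 0.32, limma adjusted p = 0.409). Arrdc3 held 2 of the miR-29a matches printed with the seeds, and its values with miR-29a against scramble were -0.29 under LPS (SE 0.16, limma adjusted p = 0.347) and -0.11 under vehicle (SE 0.42, limma adjusted p = 0.946). As a description with no test, it was 2.13-fold higher with LPS in scramble cells (log2 1.09, SE 0.33) and differed by 0.60 (SE 0.35) in miR-7a cells, and miR-7a libraries differed from scramble by -0.79 under LPS (SE 0.19) and by -0.34 under vehicle (SE 0.50).

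Arrdc1 (ENSMUSG00000026972, chr2:24925352-24935252, minus strand) varied between 26.9 and 69.0 CPM over the 32 libraries. It stood at 50.9, 69.0, 52.6 and 47.1 CPM in VEH_miR-29a and at 35.3, 39.9, 28.6 and 33.8 CPM in LPS_miR-29a, with no overlap. With LPS it fell by 0.64 on the log2 scale in miR-29a cells (SE 0.16, limma adjusted p = 0.0126), a call that held without any 1 library (limma adjusted p 0.0079 to 0.0415). In miR-146a cells it stood at 34.4, 27.3, 43.9 and 48.9 CPM with vehicle and at 35.4, 40, 45.35 and 32.2 CPM with LPS, and the LPS range lay inside the vehicle range (0.01, SE 0.20, limma adjusted p = 0.987). Between these mimics under vehicle Arrdc1 differed by 0.46 (SE 0.20, limma adjusted p = 0.194), with overlapping ranges. In the scramble libraries it stood at 47.5, 55.5, 43.5 and 44.5 CPM with vehicle and at 26.9, 40.2, 39.8 and 32.9 CPM with LPS, ranges that did not overlap (log2 -0.40, SE 0.16, no test). The miR-7a libraries stood at 42.2, 36.2, 44.7 and 54.8 CPM with vehicle and at 27.5, 31.9, 40.1 and 31.4 CPM with LPS, where the difference was -0.42 (SE 0.19, no test).

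Arrdc2 (ENSMUSG00000002910, chr8:70835129-70839720, minus strand) stayed between 13.3 and 49.1 CPM and had no call in a tested comparison in the pairwise limma fits without a block. Its group means ran from 21.1 ± 2.84 CPM in LPS_miR-146a to 33.4 ± 5.94 in VEH_miR-29a (SD, n = 4). The closest to a call was LPS against vehicle in miR-29a cells, where it stood at 19.3, 27.8, 17.9 and 24.2 CPM against 35.1, 39.9, 32.8 and 25.6 CPM. These ranges overlapped by 1 library on each side, and the difference was -0.53 (SE 0.20, limma adjusted p = 0.0636). It passed the threshold in edgeR (adjusted p = 0.0463), in a single limma fit of all 32 libraries (adjusted p = 0.0431), with the replicate number as a block (-0.57, limma adjusted p = 0.0253), and without VEH_miR-29a replicate 4 (limma adjusted p = 0.0323) or LPS_miR-29a replicate 2 (limma adjusted p = 0.0237). Between miR-7a and scramble it differed by 0.06 under LPS (SE 0.16) and by -0.09 under vehicle (SE 0.30), with no test.

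**Figure D2:**
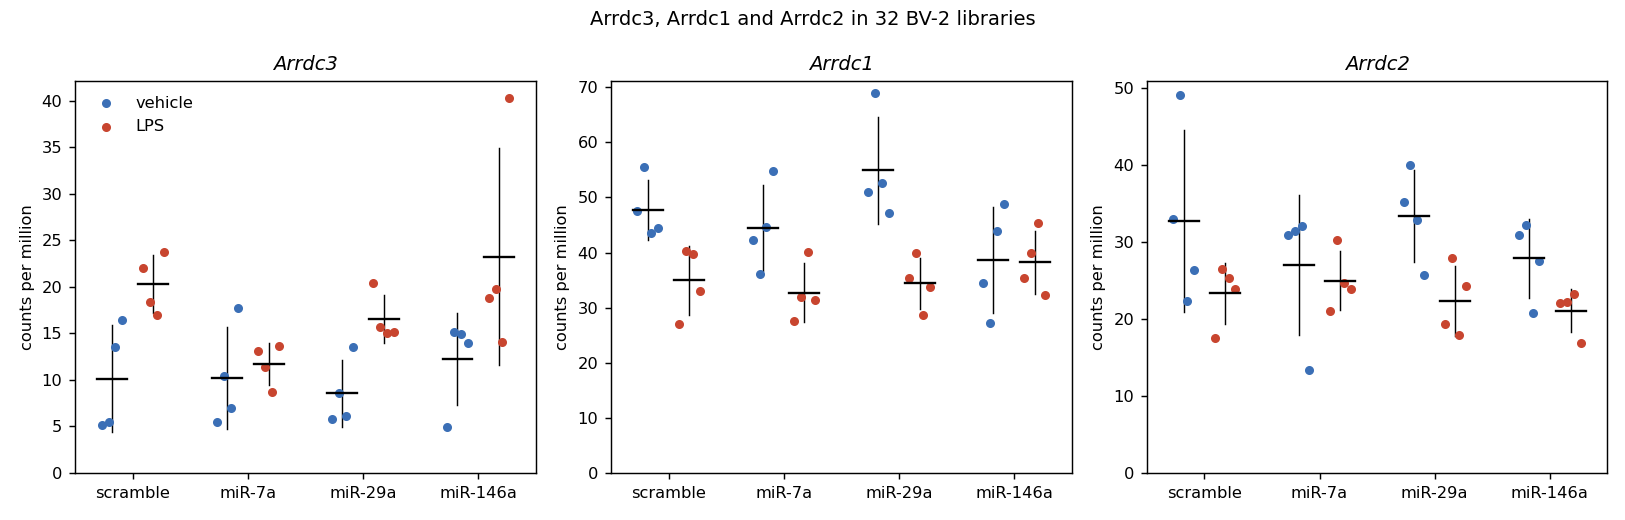
CPM of Arrdc3, Arrdc1 and Arrdc2, 1 panel each, in the 8 groups, with a point for each library, a bar for the group mean and a line for 1 SD on either side (n = 4). The mean of Arrdc3 is higher in each LPS group than in the vehicle group of the same mimic, with every LPS_miR-7a library inside the VEH_miR-7a range, 1 LPS_miR-146a library inside the VEH_miR-146a range, and 40.3 CPM in LPS_miR-146a replicate 4 as its highest value, while Arrdc1 and Arrdc2 overlap between most groups.

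Among the tested comparisons, the LPS response with miR-29a involved the most genes of the family: 1 of the 5 rose (Arrdc3) and 2 fell (Txnip, Arrdc1), where 26.5% of 12015 genes tested were called by limma in either direction. With the replicate number as a block, and likewise in edgeR, Arrdc2 and Arrdc4 passed as well, so that 5 of the 5 were called, where the block called 37.8% of all genes and edgeR 27.1%. The median difference of the 5 was -0.551 on the log2 scale, against 0.00316 over all genes tested. With miR-146a, 2 of the 5 fell with LPS (Txnip, Arrdc4), where 4.64% of 11862 genes were called, and the median was -0.278 against -0.00111. In the scramble libraries 4 of the 5 had ranges apart between LPS and vehicle, as had 23.2% of 12058 genes (limma called 18.1%), and in the comparison of miR-7a with scramble under LPS 3 of the 5 had ranges apart (Txnip, Arrdc4 and Arrdc3), as had 11.7% of 12794 genes (limma called 2.88%, or 9.54% with the replicate number as a block). Nothing is read from these last counts, since these comparisons are the ones taken to have chosen Txnip.

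In the comparisons between mimics the pairwise limma fits with the filter and all libraries, without a block, called 0 of the 5 in each case. Between miR-29a and miR-146a under vehicle, Txnip passed without the filter (-0.72, limma adjusted p = 0.00732), where 471 genes were called. Arrdc4 passed there in the limma fit of all 32 libraries (-0.86, adjusted p = 0.0131), where 741 genes were called. In the comparisons whose replicate numbers paired the libraries, limma with the number as a block called Txnip for miR-146a against scramble under LPS (0.83, adjusted p = 0.0415) and Arrdc4 for miR-29a against scramble under vehicle (-0.76, adjusted p = 0.0421). Under LPS 12.1% of genes were called between miR-29a and miR-146a (26.6% with the block), 4.69% between miR-29a and scramble (10.6% with the block) and 2.42% between miR-146a and scramble (11.1% with the block), and 0 of the 5 had an unadjusted p under 0.05. Under vehicle 3.41% were called between miR-29a and miR-146a, where 3 of the 5 had an unadjusted p under 0.05 (Txnip, Arrdc4 and Arrdc1). Between miR-29a and scramble under vehicle 0.00874% were called (1 gene, and 0.83% with the block), with 1 of the 5 at an unadjusted p under 0.05 (Arrdc4), and between miR-146a and scramble 2.49%, with 0 of the 5. For the difference of a mimic's effect between LPS and vehicle, limma called 0.025% of genes for miR-29a (0.142% with the block), with 1 of the 5 at an unadjusted p under 0.05 (Arrdc4), and 0% for miR-146a, where 1361 of 12023 genes and 0 of the 5 had an unadjusted p under 0.05. The edgeR quasi-likelihood test also called 0 of the 5 in each of these comparisons. Arrdc4 passed in limma without VEH_miR-146a replicate 4 between the mimics under vehicle, at -1.10 and an adjusted p of 0.0309 against -0.86 (SE 0.25) and 0.0743 with all libraries.

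**Figure D3:**
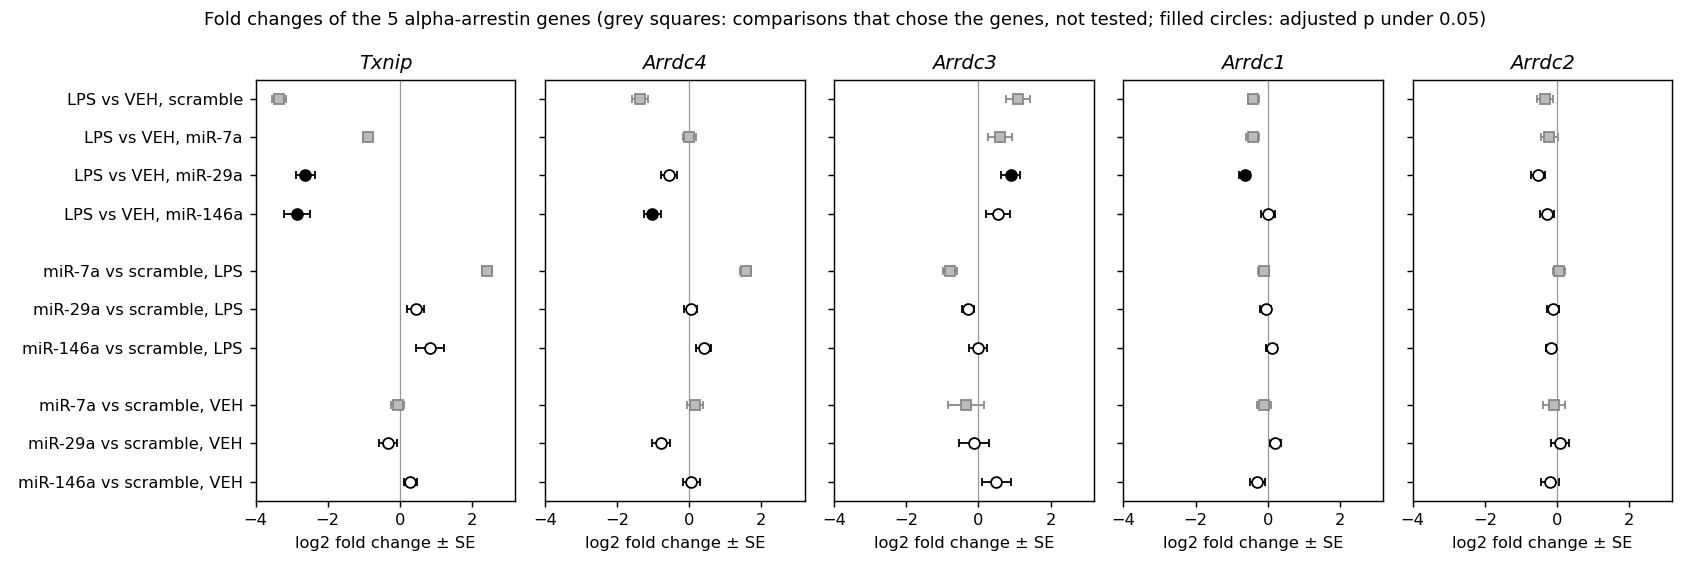
Log2 fold change with 1 SE on either side for the 5 genes in 10 comparisons. Filled circles passed the threshold in limma (adjusted p under 0.05) and open circles did not. Grey squares are the comparisons taken to have chosen Txnip, which were not tested for the 5 genes. Txnip lies between -3.34 and -0.89 in each comparison of LPS with vehicle, and at 2.42 for miR-7a against scramble under LPS.

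Txnip and Arrdc4 varied together across the libraries. The correlation of their log2 CPM was 0.852 over 32 libraries, 0.806 over the 16 vehicle and 0.913 over the 16 LPS libraries, and 0.659 after the group means were removed. All libraries share the platform, groups of 4 share a treatment, and same-numbered libraries were taken to be paired in some comparisons. The points are therefore not independent and no p is given. The correlations within groups keep any effect of the replicate number, whose part was not tested. The 32 libraries include the scramble and miR-7a libraries taken to have entered the choice of Txnip, so the correlations and ranks over all libraries are a description. Of 11974 genes ranked by their correlation with Txnip, Arrdc4 ranked 14, and Txnip ranked 2 in the list for Arrdc4. Arrdc3 ran opposite to Txnip (-0.718 over 32 libraries, -0.205 under vehicle, -0.795 under LPS and -0.511 within groups) and opposite to Arrdc2 (-0.741 over 32 libraries and -0.659 within groups). Arrdc1 stood at 0.429 with Txnip over 32 libraries, but at -0.371 under vehicle, -0.146 under LPS and 0.033 within groups, and at -0.450 with Arrdc3 and 0.129 with Arrdc4 over 32 libraries.

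**Figure D4:**
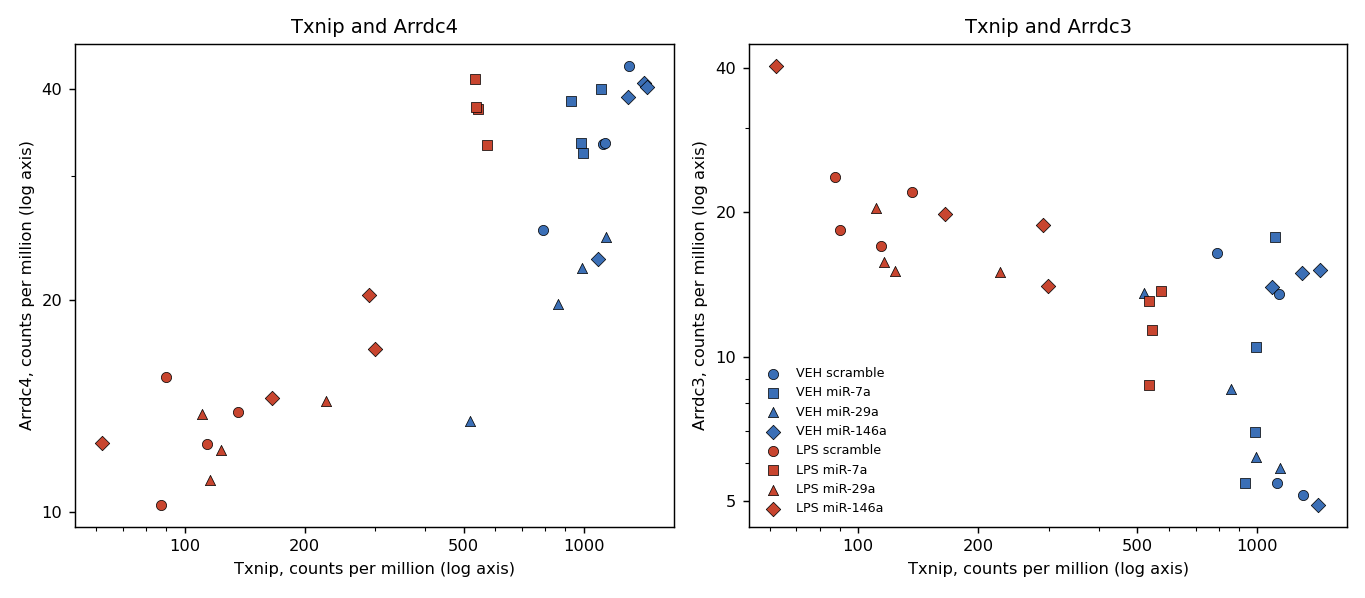
CPM of Arrdc4 (left) and Arrdc3 (right) against CPM of Txnip in 32 libraries, both axes logarithmic, with colour and symbol for the group. Arrdc4 climbs with Txnip (r = 0.852 on the log2 scale) and Arrdc3 declines (r = -0.718). On the Txnip axis the LPS_miR-7a libraries lie above the other LPS libraries. They lie below the vehicle libraries except VEH_miR-29a replicate 4 (519.5 CPM).

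The genes with the pattern most like Txnip over the 32 libraries were Klhl38, Traf5 and Bcar3 (r = 0.897 each), Oscar and Sesn1 (0.889), Cd83 (0.886), Dpp7 (0.880), Mgl2 (0.879), Ptgs1 (0.864) and Cdk15 (0.861). Sesn1, a stress-response gene, averaged 189 CPM in VEH_scramble, 57.8 in LPS_scramble and 67.1 in LPS_miR-7a, and Cd83, a surface marker of antigen-presenting cells, averaged 310.0, 72.4 and 110.4 CPM in the same groups. Dpp7, a dipeptidyl peptidase, averaged 119 CPM in VEH_scramble, 71.4 in LPS_scramble and 99.6 in LPS_miR-7a. The most opposite were Stap1 (r = -0.886), Rnd1 (-0.879), Mdc1 (-0.873), Saa3 (-0.869) and Osbpl3 (-0.852). Saa3, an acute-phase serum amyloid gene, averaged 2.44 CPM in VEH_scramble, 899 in LPS_scramble, 392 in LPS_miR-7a and 1818 in LPS_miR-29a, and its correlation within groups was 0.272, of the other sign, as was that of Osbpl3 (0.484). Arrdc4 was most like Actr3b (0.887), Txnip and Olfm4 (0.830). Arrdc3 was most like Ero1l (0.814), an oxidase of the endoplasmic reticulum, Ptgs2 (0.810), the inducible cyclooxygenase, and Hilpda (0.801), a lipid-droplet protein. Ero1l averaged 323.5 CPM in VEH_scramble, 917 in LPS_scramble and 429 in LPS_miR-7a, and Hilpda 29.5, 57.4 and 25.6 CPM. Arrdc1 was most like Bsn (0.874), Rgl2 (0.863) and Trpv2 (0.848), and Arrdc2 most like Tcf3 (0.867), Nol6 (0.828) and Tsen54 (0.816).

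Among the genes that act with alpha-arrestins, the LPS response in miR-29a cells held 12 calls. Of 38 genes tested in 7 lists, 6 rose and 6 fell in limma, where 26.5% of all genes were called, so the count of calls was near the background. Of the arrestin-fold relatives, 1 of 5 tested changed: Arrb1 (beta-arrestin 1) fell by 1.33 (SE 0.20, limma adjusted p = 0.000577), from 367 to 149 CPM. Of the regulators of Txnip, 2 of 6 rose and 2 fell. Foxo3, a forkhead factor, fell by 1.01 (SE 0.14, limma adjusted p = 0.000416) and Mlxip, which encodes MondoA, by 0.63 (SE 0.16, limma adjusted p = 0.0109), while Prkaa1, a catalytic subunit of AMP-activated kinase, rose by 0.75 (SE 0.15, limma adjusted p = 0.00364). Of the thioredoxin system, 1 of 5 rose and 2 fell, with Txnrd1, the cytosolic thioredoxin reductase, at 84.8 against 40.9 CPM (1.09, SE 0.17, limma adjusted p = 0.000905). Of the inflammasome genes, 2 of 5 rose, among them the cytokine Il1b at 15.2 against 0.795 CPM (4.11, SE 0.73, limma adjusted p = 0.00172). These 6 calls held without any 1 library.

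The other 6 calls of this comparison did not all hold when 1 library was left out. Txnrd2, the mitochondrial reductase (-0.73, SE 0.21, limma adjusted p = 0.0219), lost its call without VEH_miR-29a replicate 4 (0.0751) or LPS_miR-29a replicate 3 (0.0505), and Tsg101, the budding partner of Arrdc1 and the 1 of 4 in its list called (0.60, SE 0.16, limma adjusted p = 0.0171), without VEH_miR-29a replicate 3 (0.0517) or 4 (0.0796). Mitochondrial thioredoxin Txn2 (-0.54, SE 0.17, limma adjusted p = 0.0322) lost it without VEH_miR-29a replicate 1 (0.0559) or 2 (0.0732) or LPS_miR-29a replicate 1 (0.0731) or 3 (0.0917). The glucose transporter Slc2a8, the 1 of 7 in its list called (-0.84, SE 0.26, limma adjusted p = 0.0307), lost it without VEH_miR-29a replicate 2 (0.0638), 3 (0.0766) or 4 (0.0637) or LPS_miR-29a replicate 1 (0.069) or 3 (0.0999). The kinase subunit Prkaa2 (0.42, SE 0.14, limma adjusted p = 0.0451) lost it without VEH_miR-29a replicate 1 (0.0899), 2 (0.0574), 3 (0.145) or 4 (0.109) or LPS_miR-29a replicate 3 (0.117) or 4 (0.0866). The cytokine Il18 (0.86, SE 0.29, limma adjusted p = 0.0439) lost it without VEH_miR-29a replicate 1 (0.0652), 2 (0.0721), 3 (0.132) or 4 (0.134) or LPS_miR-29a replicate 1 (0.0923) or 3 (0.108). Of the WW-domain HECT ubiquitin ligases, 0 of 6 tested were called by limma or edgeR, and 0 had an unadjusted p under 0.05. The list medians were -0.028 for the arrestin-fold relatives, 0.078 for the regulators of Txnip, 0.052 for the thioredoxin system, -0.190 for glucose transporters and hexokinases, 0.1 for the ligases, 0.012 for the budding partners and 0.818 for the inflammasome, against 0.00316 over all genes.

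In miR-146a cells, where Txnip was also lower with LPS, 0 of the 38 tested genes of these lists were called by limma or by edgeR, where 4.64% of all genes were called, and 9 had an unadjusted p under 0.05. Foxo3 averaged 183 CPM in LPS_miR-146a against 107.6 in LPS_miR-29a, a difference of -0.77 between the mimics (SE 0.14, limma adjusted p = 0.00572), and Arrb1 349.5 against 149 CPM (-1.27, SE 0.19, limma adjusted p = 0.00179). Both calls held without any 1 library. The glucose transporter Slc2a1, whose surface level Txnip is known to control, was lower in miR-29a than in miR-146a cells under LPS (-1.09, SE 0.26, limma adjusted p = 0.0196), a call lost without LPS_miR-29a replicate 3 (0.0571) or 4 (0.0524) or LPS_miR-146a replicate 2 (0.0525) or 4 (0.0541). In all, 2 of 39 tested genes of the lists were higher and 5 lower in that comparison (12 called with the replicate number as a block), where 12.1% of all genes were called (26.6% with the block). The other 4 were Prkaa1 (0.56) and the transporter Slc2a6 (0.75), both higher, and Slc2a8 (-1.11) and hexokinase Hk2 (-0.63), both lower, with limma adjusted p of 0.0194 to 0.0386. Prkaa1 lost its call without LPS_miR-29a replicate 1 or 3 or LPS_miR-146a replicate 2 or 3 (0.0536 to 0.0647), Slc2a6 without LPS_miR-29a replicate 1 or LPS_miR-146a replicate 1, 3 or 4 (0.065 to 0.0824), Slc2a8 without LPS_miR-29a replicate 1, 3 or 4 or LPS_miR-146a replicate 2, 3 or 4 (0.053 to 0.118), and Hk2 without LPS_miR-29a replicate 1, 3 or 4 or LPS_miR-146a replicate 2 or 4 (0.0558 to 0.102).

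Against LPS_scramble, Slc2a1 was lower with both miR-7a and miR-29a, in comparisons that share the scramble libraries. It averaged 371 CPM in LPS_scramble and 177 in LPS_miR-7a, a change of -1.08 (limma adjusted p = 0.0292), and was the 1 gene called of 40 tested in the lists (5 with the block), where 2.88% of all genes were called (9.54% with the block). This call was lost without LPS_scramble replicate 1 (0.0583), 2 (0.0625) or 4 (0.102) or LPS_miR-7a replicate 1 (0.0606) or 3 (0.0886). With miR-29a it averaged 181 CPM (-1.07, SE 0.25, limma adjusted p = 0.0374), a call lost without LPS_scramble replicate 1 (0.0655), 2 (0.08), 3 (0.0575) or 4 (0.114) or LPS_miR-29a replicate 3 (0.0937) or 4 (0.0774). With miR-29a the lists held 1 higher and 3 lower calls of 40 tested (9 calls with the block), where 4.69% of all genes were called (10.6% with the block). Beside Slc2a1 these were Arrb1 (-0.995, limma adjusted p = 0.0156), lost without LPS_scramble replicate 4 (0.0551) or LPS_miR-29a replicate 3 (0.0534), and Hk2 (-0.58, limma adjusted p = 0.0451) and Prkaa1 (0.51, limma adjusted p = 0.0474). Hk2 lost its call without LPS_scramble replicate 1, 2 or 4 or LPS_miR-29a replicate 1, 3 or 4 (0.0554 to 0.138), and Prkaa1 without any LPS_scramble library or LPS_miR-29a replicate 1, 3 or 4 (0.0665 to 0.119). With miR-146a limma and edgeR called 0 of 38 (3 with the block in limma), where 2.42% of all genes were called (11.1% with the block), and 2 genes were at an unadjusted p under 0.05.

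In the remaining comparisons the lists held few calls. Between miR-29a and miR-146a under vehicle limma called 3 of 37, where 3.41% of all genes were called: Arrb2, the beta-arrestin 2 gene (0.67, adjusted p = 0.0315), Slc2a6 (0.88, adjusted p = 0.0457) and the ligase Wwp1 (-0.67, adjusted p = 0.0461). Arrb2 lost its call without replicate 1, 2 or 3 of either group (0.0578 to 0.1), Slc2a6 without VEH_miR-29a replicate 1, 2 or 3 or any VEH_miR-146a library (0.0587 to 0.124), and Wwp1 without VEH_miR-29a replicate 2, 3 or 4 or VEH_miR-146a replicate 1, 2 or 3 (0.0613 to 0.14). Against scramble under vehicle limma and edgeR called 0 of 37 with miR-29a (0.00874% of all genes, 2 of the 37 at an unadjusted p under 0.05), and 1 of 38 with miR-146a (2.49% of all genes), Wwp1 (0.83, adjusted p = 0.0482), lost without VEH_scramble replicate 2, 3 or 4 or VEH_miR-146a replicate 1, 2 or 3 (0.0719 to 0.127). With LPS in scramble cells limma called Prkaa1 (0.75, adjusted p = 0.0162), Foxo3 (-0.60, adjusted p = 0.0397) and Txn2 (-0.53, adjusted p = 0.023) of 38 tested (7 with the block), where 18.1% of all genes were called (25.9% with the block). The antisense gene Gm15441 averaged 0.632 CPM with LPS and 2.80 with vehicle in these cells. Its reads cannot be told apart from those of Txnip, so no test of it is given. Prkaa1 lost its call without LPS_scramble replicate 4 (0.0601), Foxo3 without VEH_scramble replicate 2 or 4 or LPS_scramble replicate 1, 3 or 4 (0.0758 to 0.11), and Txn2 without VEH_scramble replicate 3 or 4 or LPS_scramble replicate 1, 3 or 4 (0.0545 to 0.0845). The differences of the mimics' effects between LPS and vehicle held 0 calls in limma and edgeR, of 40 genes for miR-29a (Arrb1 and Txnrd1 called with the block in limma, 5 at an unadjusted p under 0.05) and 39 for miR-146a (1 at an unadjusted p under 0.05).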

How the data were processed

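RNA sequencing was performed by the authors on 32 BV-2 libraries from total RNA, after ribosomal depletion with RiboCop and library preparation with the CORALL kit. Per the study's methods, reads were counted with nf-core rnaseq 3.0 on GRCm38, and limma and edgeR, which the submitters' processing notes name, were used with filterByExpr and TMM for pairs of conditions. The authors deposited 1 table of expected counts (estimated counts per gene, described as counts) for 45706 genes, whose decimal marks had been lost. Of 590874 values above 0, a model of the digits and of each gene's level gave 28.5% lost decimals, and 1.33% with a posterior under 0.9 were uncertain. Genes with an uncertain value in a comparison were left out of it. The lowest posterior of a value of the 5 genes was 0.967. Pairs of libraries with identical values numbered 0, and 98.8% of gene IDs were in GENCODE release M21, used for positions and untranslated regions.

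Each pair of groups was fitted across all genes with limma 3.58.1 (voom) after filterByExpr and TMM in edgeR 4.0.16 (R 4.3.3), with no covariate. P-values were adjusted by Benjamini-Hochberg over all genes tested and called under 0.05. Differences of effects were interaction terms over 4 groups. The design followed the study's methods, so limma rather than the edgeR quasi-likelihood test gave the main values. The sources used here do not say that replicate numbers mark shared days. Same-numbered libraries were therefore checked for deviations from group means that correlate: all 4 correlations exceeded 0.1 in 7 comparisons, among them LPS against vehicle with miR-29a (0.168 to 0.311), miR-29a or miR-146a against scramble under LPS (0.277 to 0.524 and 0.152 to 0.453) and miR-29a against scramble under vehicle (0.104 to 0.381), and there the numbers were taken to pair the libraries. P-values measure the spread between these libraries. Alternatives were RLE scaling, no filter beyond 1 count, edgeR's quasi-likelihood test, the replicate block, a single fit of all 32 libraries, a posterior minimum of 0.99, restoration from the level alone, and leaving out each library. Correlations used log2 CPM with a prior count of 2, over genes that passed the filter. Restoration and tests were checked on simulated data. Counts of the 5 genes ran from 7 to 447 (Arrdc3) and from 199 to 10690 (Txnip) a library. The genes named were the 5, the 10 most like and 5 most opposite to Txnip, the 3 most like each other gene, and called genes of the lists. The members and the lists were chosen with earlier results of these data known.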

Additional observations from a re-analysis of the deposited data

Results flagged for a closer look

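In 5 of 40 sets of 4 libraries (5 genes in 8 groups), 1 library lay far from the other 3 by Dixon's criterion at 95%, which chance alone gives in about 1 of 20 sets. Txnip stood at 226.5 CPM in LPS_miR-29a replicate 3, above 110.5 to 124 CPM in the others, and without that library Txnip fell by 2.87 on the log2 scale with LPS (limma adjusted p = 2.41e-05). Arrdc4 stood at 22.91 CPM in VEH_miR-146a replicate 4, below 38.95 to 40.7 CPM, and without it the LPS difference of Arrdc4 was -1.25 (limma adjusted p = 0.00459). Arrdc3 stood at 20.41 CPM in LPS_miR-29a replicate 1, above 15.0 to 15.7 CPM, and without it the LPS call of Arrdc3 was lost (limma adjusted p = 0.0633). Arrdc3 also stood at 4.912 CPM in VEH_miR-146a replicate 1, on 7 counts, against 13.9 to 15.1 CPM. Arrdc2 stood at 13.32 CPM in VEH_miR-7a replicate 4, the library with the fewest counts, on 9 counts, against 30.9 to 32.1 CPM.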

How the results depend on the processing

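Of 107 results for the 5 genes and the lists, RLE scaling kept the direction and the side of the threshold in 104, no filter in 97, edgeR in 103, the replicate block in 99, the fit of all 32 libraries in 99 of 106, a posterior minimum of 0.99 in 103 of 103 and restoration from the level alone in 84 of 106. The cause of the changes was not tested.

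Txnip with miR-146a lost its LPS call with restoration from the level alone (-2.99). Between miR-29a and miR-146a under vehicle it passed without the filter (-0.72, limma adjusted p = 0.00732) and with the replicate block (-0.63, limma adjusted p = 0.019), as did Arrdc4 with the block (-0.82) and in the fit of all libraries (-0.86). Against scramble under LPS, Txnip with miR-146a passed with the block (0.83), and ranged from 0.60 to 1.25 when 1 library was left out. The untested difference of Txnip between LPS and vehicle with miR-7a was -0.80 without the filter. The sign reversed for Arrdc1 with miR-146a between LPS and vehicle (RLE -0.0061, edgeR -0.0043, all libraries -0.0028), for Arrdc4 with miR-29a under LPS with the block (-0.0076) and for Arrdc3 with miR-146a under LPS (edgeR 0.17, block 0.15), all near 0.

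Genes called moved over 1.5 times as follows. Restoration from the level alone gave 2074, 168 and 1113 for LPS against vehicle with miR-29a, miR-146a and scramble, 643 and 4 between miR-29a and miR-146a under LPS and vehicle, 109, 0 and 42 for miR-29a, miR-146a and miR-7a against scramble under LPS, and 4 and 2 for miR-29a and miR-146a under vehicle. The replicate block gave 3273 and 686 between miR-29a and miR-146a, 1383, 1371 and 1221 against scramble under LPS, 95 and 910 under vehicle, and 17 for the miR-29a interaction. All 32 libraries in 1 fit gave 855 for LPS with miR-146a, 741 between the mimics under vehicle, and 95 and 1533 against scramble under vehicle. No filter gave 4 and 486 against scramble under vehicle and 6 for the miR-29a interaction. The edgeR test gave 185 for miR-146a under LPS and 3 for miR-29a under vehicle, and the 0.99 minimum gave 3 for the latter.

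Leaving out 1 library gave 2157 to 3642, 278 to 496 and 1124 to 2907 genes for LPS with miR-29a, miR-146a and scramble, 744 to 1561 and 33 to 391 between miR-29a and miR-146a, 165 to 702, 32 to 275 and 67 to 391 against scramble under LPS, 0 to 8 and 0 to 1296 under vehicle, and 1 to 4 and 0 to 81 for the interactions. Signs reversed in these fits for Arrdc1 (-0.17 to 0.15 for LPS with miR-146a, -0.14 to 0.043 for miR-29a under LPS), Arrdc2 (-0.10 to 0.15 between mimics under LPS, -0.24 to 0.0107 for miR-29a under LPS, -0.0647 to 0.25 and -0.32 to 0.0231 for miR-29a and miR-146a under vehicle, -0.15 to 0.14 for the miR-146a interaction), Arrdc3 (-0.20 to 0.19 for miR-146a under LPS, -0.47 to 0.27 for miR-29a under vehicle, -0.61 to 0.18 for the miR-29a interaction) and Arrdc4 (-0.12 to 0.17 for miR-29a under LPS, -0.11 to 0.33 for miR-146a under vehicle). Same-numbered libraries did not all correlate over 0.1 for LPS with miR-146a (0.0754 to 0.290), between the mimics under vehicle (0.0898 to 0.329) or for miR-146a under vehicle (0.0321 to 0.301), so the block rests on numbers alone there, as for Arrb2 and Slc2a1, the 2 of 38 list genes it called for LPS with miR-146a. Depth limits Arrdc3 under vehicle, at 7 to 124 counts.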
